A study of Mus musculus with 20 samples.

Results

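The RNA levels of Lcn2 and 9 further acute-phase genes (Hp, Saa1, Saa2, Saa3, C3, Cfb, Cebpb, Cebpd and Nfkbiz) were followed in mouse malignant mesothelioma (MM) cells grown as organoids and in conventional culture. These 10 genes are the rows of the expression table that carry these names, out of 21884 genes in the table. They were chosen by function together with measured values: Lcn2 was selected on its difference between the cultures and Hp on its level in 1 organoid library. The levels of both are therefore given as a description, with no test. The other members and the gene lists used further on were chosen with earlier results of these data known.

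The study grew 7 MM lines (m5, m12, m28, m54, m60, m67 and m107) from MM tissue or, for m67 per the study, from ascites, of mice of the C57/BL6 strain. Mice with the p53+/- genotype and an injection of crocidolite (an asbestos) gave m5, m12, m28, m54 and m60; a wild-type mouse with crocidolite gave m67, and a p53+/- mouse with carbon nanotubes gave m107. Each line gave 1 library from 2D culture on plastic and 1 from 3D culture as MM organoids in Matrigel, so the 14 libraries form 7 pairs with no replicate within a line and culture. The medium differed along with the matrix: per the study's methods the 2D MM cell lines received serum, and the organoids received a defined medium with EGF, R-spondin1, Noggin and the ROCK inhibitor Y-27632. Matrix and medium cannot be told apart here. Ages of the animals were not used here.

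Acute-phase proteins are secreted in large amounts during inflammation, mainly by the liver, and many are also made locally by epithelial and mesenchymal cells. Their genes are switched on by interleukin-1, TNF and toll-like receptors through NF-kB, by cytokines of the interleukin-6 family through STAT3, and by transcription factors of the C/EBP family. IkappaB-zeta, the product of Nfkbiz, is itself induced by NF-kB and then acts in the nucleus on a second set of genes, of which Lcn2 is a known one.

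Libraries held 11134018 to 53911770 reads, and the unit of all values is CPM (a gene's reads scaled to 1 common total per library). The labelled pairs were not all alike. Summed over 4 Y-linked genes, line m5 had 12572 reads in its 2D library against 0 in its organoids, and m12 had 0 against 10773, so the 2 libraries of each of these lines went against their shared label. Line m28 had 10 such reads in 2D and 0 in 3D, and m54 had 795 and 171. Lines m60, m67 and m107 held such reads in both cultures. Per the study the injected mice were male. A mix-up of libraries and a change in the cells cannot be told apart from these values, and ratios within m5 and m12 may not compare the same cells. The organoid library of m12 also lacked the mesenchymal markers of the other lines: 8 such markers, Col1a1 and Vim among them, summed to 1.84 CPM there and to at least 3248 CPM in every other library, while 8 epithelial markers summed to 6964 CPM against at most 1725 elsewhere. The 9 mesothelial markers summed to 5247 CPM in 3D m12, within the range of 460 to 10751 CPM of the other libraries, but their makeup differed there. Msln (647 CPM), Krt8 (2576 CPM) and Krt18 (2023 CPM) were the highest of the 14 libraries, Wt1 was at 0.0371 CPM and Upk3b at 1.06 CPM, against at least 53.6 and 78.4 CPM in the other 13, and Upk1b, Bnc1 and Gpm6a were at 0. The organoid library of m67 held macrophage markers (10 genes, C1qa, C1qb and C1qc among them) at a sum of 2380 CPM against at most 47.8 CPM elsewhere. Values without m5 and m12, or without m12 or m67, are given beside the tested members.

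Lcn2 encodes lipocalin 2, a secreted protein that withholds iron from bacteria by binding their siderophores. In 2D MM cell lines its level ran from 0 CPM (m5) over a median of 0.139 CPM to 130 CPM (m60), and in MM organoids from 7.01 CPM (m28) over a median of 31.2 CPM to 1626 CPM (m60). The cultures overlapped only through m60, whose 2D library exceeded 5 of the 7 organoid libraries. Apart from m60, Lcn2 in 2D rested on 0 to 9 reads a library, at or near the limit of detection (3 reads, 0.0556 to 0.269 CPM across the libraries).

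Within every line Lcn2 was higher in the organoids, in 7 of 7 lines. Of all 11677 genes tested, 7.05% were higher in 3D in 7 of 7 lines. Lcn2 was selected on this difference, so the share is background and no test of it. Lcn2 reached 1 CPM in 2D in m60 alone, so it passed the filter on low values through its organoid libraries. In m5 the level was 0 CPM in 2D and 140 CPM in 3D, 2360.4-fold higher when the 2D count is set to a floor of 3 reads. The lower end of the 95% exact interval of its ratio, for counting error only, was 1919. In m12 it was 0.0733 and 69.8 CPM, a ratio of 952 (95% exact interval for counting error only, 326 to 4620.4). In m28 it was 0.0666 and 7.01 CPM, resting on 1 read in 2D (ratio 105, interval 18.4 to 4199.6). These 3 lines and m54 were almost devoid of Lcn2 reads in 2D (0 to 3 reads each), and the intervals of their ratios are wide.

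In m54 the 2D and 3D levels were 0.139 and 25.8 CPM, a ratio of 186 (51.2 to 1541). In m67 they were 0.434 and 31.2 CPM, a ratio of 71.8 (37.6 to 158), and in m107 0.539 and 9.44 CPM, a ratio of 17.5 (7.79 to 48.8). Line m60 stood apart from both sides: it began at 130 CPM in 2D, from 2055 reads, and reached 1626 CPM in 3D, a ratio of 12.5 (11.9 to 13.1). The interval of m107 includes the ratio of m60, and on the log2(CPM + 1) scale the difference was 3.63 in m60, 2.91 in m28 and 2.76 in m107.

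The mean of Lcn2 was 18.8 ± 49.2 CPM in the 2D MM cell lines and 273 ± 599 CPM in the organoids (SD, n = 7), both dominated by m60. Without m60 they were 0.209 ± 0.222 and 47.2 ± 50.8 CPM (SD, n = 6). Each of the 6 organoid libraries then lay above each of the 6 2D libraries, as was so for 1.22% of the genes tested. Since Lcn2 was selected on this difference, that share too is no test. On the log2(CPM + 1) scale the mean difference was 4.50 over 7 lines, and it was 3.67 without m5 and m12 and 4.65 without m60. In the plot of members by line, the Lcn2 panel shows 6 lines starting at the bottom of the scale and m60 starting above most organoids.

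**Figure D1:**
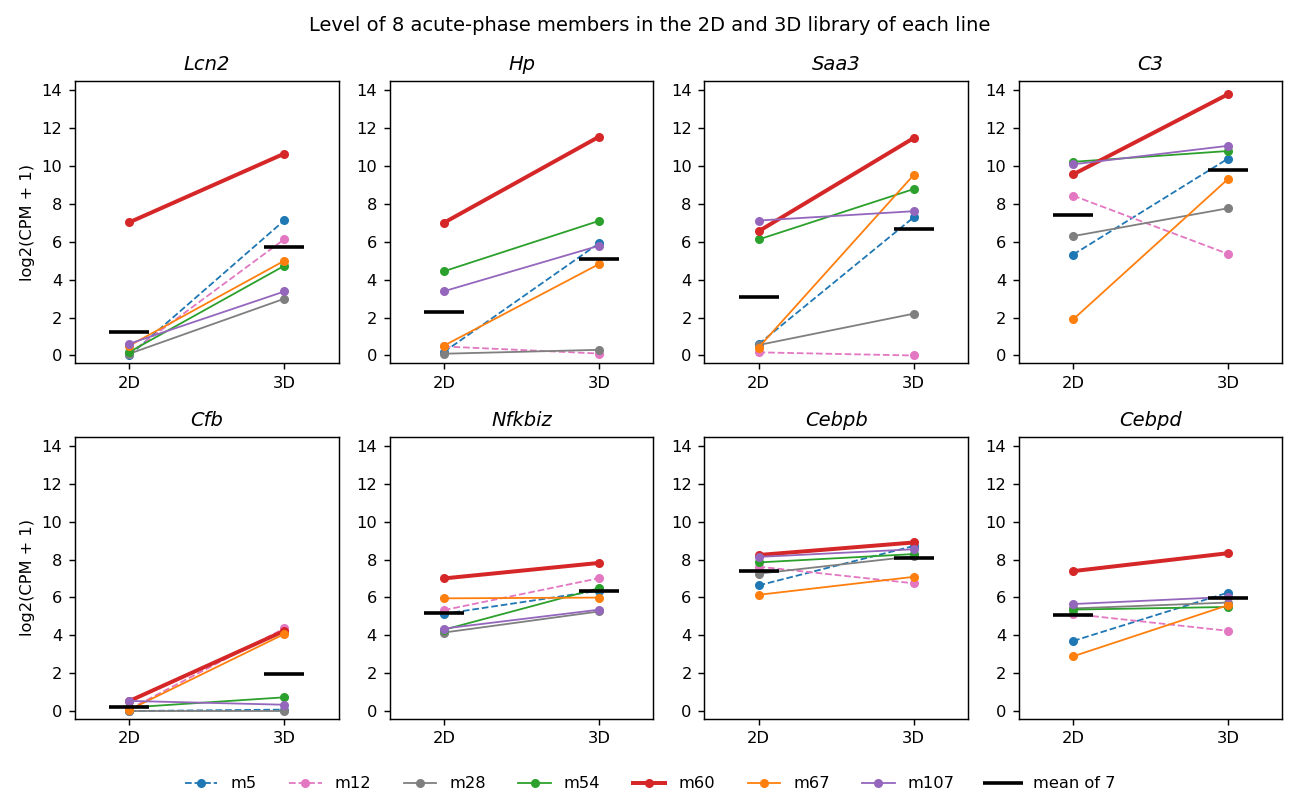
Level of 8 members on the log2(CPM + 1) scale (y axis) in the 2D and 3D library of each line (x axis); each line connects the 2 libraries of 1 MM line, m60 is drawn thick, m5 and m12 dashed, and black bars are means of 7 libraries. Lcn2 and Nfkbiz were higher in 3D in 7 of 7 lines, and the m60 organoids were highest for every member shown except Cfb.

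Neutrophils store lipocalin 2 in their granules, so their markers were read beside it. The 10 neutrophil markers summed to 0.0792 to 2.60 CPM in 2D and to 8.67 CPM in 3D m60, where Lcn2 was at 1626 CPM. Their sum was 268.6 CPM in 3D m12, of which Ltf alone (lactoferrin, made by neutrophils and by glandular epithelium) accounted for 267.7 CPM. In the other 5 organoid libraries the sum was 0.231 to 5.26 CPM.

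Lcn2 lies on chromosome 2 (GRCm39, 32274645 to 32278264, minus strand). Upstream of the start of its canonical transcript a script searched 250 bases on both strands for the letters GGGANNNNCC (a kappaB site, bound by NF-kB), TTNNGNAA (a C/EBP site) and TTCNNNGAA (a STAT site). The first was found at 203 to 194 bases before the start, and again on the other strand shifted by 1 base, and the second at 158 to 151 bases. Each is shown within 30 bases on the minus strand, 5′ to 3′, at chr2:32277992-32278021 and chr2:32277949-32277978, because these are the letters through which the regulators described further on are known to bind; capitals mark the matched letters of both strands.
Lcn2 kappaB window: caaagccctGGGAATGTCCCtctggtcccc
Lcn2 C/EBP window: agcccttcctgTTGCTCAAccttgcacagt
A match to the kappaB letters was present in 18.2% and to the C/EBP letters in 36.9% of 21686 promoters of the same length, so either match alone is common. The kappaB window also falls within an exon of another annotated Lcn2 transcript.

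Hp (chromosome 8, 110301759 to 110305804, minus strand) encodes haptoglobin, which captures free haemoglobin. It was listed at 0.0666 CPM (m28) over a median of 0.434 CPM to 128 CPM (m60) in 2D and at 0.0742 CPM (m12) over a median of 54.7 CPM to 3014 CPM (m60) in 3D. The m60 organoids held 21.9 times the Hp level of the next organoid library (m54, 137 CPM), and 2D m60 held 6.15 times that of the next 2D library (m54, 20.9 CPM). The ranges of the cultures overlapped from 0.0742 to 128 CPM, and the organoids of m54 and m60 lay above every 2D library.

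In 5 of 7 lines the organoids held more Hp beyond counting error. The levels in 2D and 3D were 0.139 and 59.9 CPM in m5 (ratio 432, 209 to 1076), 20.9 and 137 CPM in m54 (6.59, 5.83 to 7.46), and 128 and 3014 CPM in m60 (23.5, 22.5 to 24.6). They were 0.434 and 27.4 CPM in m67 (63.2, 33.0 to 139) and 9.52 and 54.7 CPM in m107 (5.74, 4.67 to 7.12). In m28 Hp had 1 and 3 reads (3.47, 0.278 to 182, which includes no difference), and in m12 it was lower in 3D, from 16 reads to 4. Lines m54, m60 and m107 therefore expressed Hp already in 2D, and m5 and m67 mainly in 3D.

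The mean was 22.8 ± 47.1 CPM in 2D and 471 ± 1123 CPM in 3D (SD, n = 7), and 5.24 ± 8.51 and 46.6 ± 51.3 CPM without m60 (SD, n = 6). The mean log2 difference was 2.79 over 7 lines, 3.31 without m12, and 2.83 without m5 and m12. Hp is made in the adult chiefly by hepatocytes. The 7 hepatocyte markers, Alb and Apoa1 among them, summed to 3.55 CPM in 2D m60, the highest 2D library (Apob at 3.30 CPM), and to 0.770 CPM in 3D m60. Their sum was highest in 3D m12, at 15.6 CPM (Ttr at 12.9 CPM), where Hp was at 0.0742 CPM, and Fgb and Cyp2e1 were at 0.05 CPM or less in every library.

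The serum amyloid A genes encode small apolipoproteins of high-density lipoprotein, and in the mouse Saa3 is the member made mostly outside the liver while Saa1 and Saa2 are the main liver forms. The 3 genes lie side by side on chromosome 7 (Saa3 at 46361422 to 46365576, Saa1 at 46389916 to 46392547, Saa2 at 46401214 to 46403737). Saa1 and Saa2 were at 0 reads in all 7 2D libraries. In 3D, Saa1 had 10 reads in m60 and 5 in m67, and Saa2 had 9 in m60 and 1 in m54. Their transcripts were 94.8% identical where aligned and shared 7.20% of 50-base words and 0% of 150-base words, the length of the reads per the study's methods. Saa3 shared 1.27% of 50-base words with Saa1 and none with Saa2.

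Saa3 ran from 0.122 CPM (m12) over a median of 0.515 CPM to 139 CPM (m107) in 2D, and from 0 CPM (m12) over a median of 196 CPM to 2867 CPM (m60) in 3D. In 3 lines it was expressed in 2D already (m54 at 69.0, m60 at 93.4 and m107 at 139 CPM), and in the other 4 it was at or below 0.515 CPM there. The difference was largest in m67, from 0.338 to 739 CPM (ratio 2189.9, 1063 to 5448), and m5, from 0.515 to 156 CPM (303, 207 to 464). It was smallest in m107, from 139 to 196 CPM (1.41, 1.32 to 1.51), and m12 went from 5 reads to 0. In 3D the first 3 lines held 442 (m54), 2867 (m60) and 196 CPM (m107), and of the other 4, m5 and m67 held 156 and 739 CPM while m28 stayed at 3.62 CPM and m12 at 0.

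Over 7 lines Saa3 differed by 3.63 on the log2 scale (SE 1.08; adjusted p = 0.0906, limma, adjusted over the 11677 genes tested; higher in 6 of 7 lines), which did not pass the threshold of 0.05. The adjusted p was 0.0509 without m12, 0.108 without m5 and m12, and 0.164 without m67, and it was 0.0264 with DESeq2 on the recovered reads, which called 8.67% of genes higher in 3D. Macrophages of the mouse also make this gene, and the part of the macrophage markers of 3D m67 in its Saa3 value was not tested. In 3D m60, with Saa3 at 2867 CPM, the macrophage markers summed to 18.8 CPM.

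C3 (chromosome 17, 57510964 to 57535155), the central component of complement, was the member with the highest CPM in 8 of the 14 libraries. Cebpb was highest in 2D m5, 2D m28, 2D m67 and 3D m28, Nfkbiz in 3D m12 and Saa3 in 3D m67. Its 2D levels ran from 2.75 CPM (m67) over a median of 348 CPM to 1202 CPM (m54), and its 3D levels from 40.1 CPM (m12) over a median of 1357 CPM to 14331 CPM (m60). In the m60 organoids C3 alone made up 1.43% of all reads, and the 10 members together 2.29%, against 0.0141% to 0.171% in 2D and 0.0383% to 0.290% in the other organoids. Per kilobase of the canonical transcript the leading members of 3D m60 were close together, with Saa3 at 2847, C3 at 2778, Hp at 2239 and Lcn2 at 1777 CPM per kb.

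The ratio of 3D to 2D was 1.49 (1.46 to 1.51) in m54 and 1.97 (1.93 to 2.01) in m107, the lines with the highest C3 level in 2D, and 2.80 (2.61 to 3.00) in m28, from 78.1 to 219 CPM. It was 34.6 (33.1 to 36.2) in m5, 18.9 (18.6 to 19.3) in m60 and 234 (180 to 309) in m67, where 2D had 57 reads. In m12 it was at 348 CPM in 2D and 40.1 CPM in 3D, a ratio of 0.115 (0.110 to 0.121). The mean log2 difference of 2.38 (SE 1.097) had an adjusted p of 0.216 by limma (higher in 6 of 7 lines) and of 0.0370 by DESeq2 on the recovered reads, and by edgeR of 0.334. Leaving lines out moved the difference by limma from 1.54 (without m67; adjusted p = 0.400) to 3.29 (without m12; adjusted p = 0.0608). It was 1.93 without m5, 2.07 without m60 and 2.94 without m5 and m12 (adjusted p = 0.388, 0.375 and 0.127, limma).

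Cfb (chromosome 17, 35074852 to 35081559), the protease subunit of the alternative pathway's C3 convertase, did not pass the filter on low values. It was at 0 to 0.449 CPM in 2D, and in 3D it exceeded 1 CPM in m12 (19.7 CPM), m60 (17.9 CPM) and m67 (15.8 CPM) alone. In m12 it had 3 reads in 2D and 1062 in 3D, so that Cfb, like Lcn2 and Nfkbiz, was higher in the m12 organoids. The annotated readthrough gene Gm20547 covers 67.1% of the exon bases of the Cfb transcript on the same strand and had 0 reads in all 14 libraries, so reads from shared exons may have been set aside at counting, and Cfb levels may be understated. Exons of Nelfe on the opposite strand overlap 48.7% of the Cfb transcript, and the strand setting of the counting is not given in the sources used here. C1qa, which macrophages make, was at 193 CPM in 3D m67, and the part of macrophage RNA in the Cfb value of m67 was not tested.

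The promoters of C3 and Cfb are printed because C3 held the most matches of the 10 members, and Cfb as many as Lcn2; each is the 250 bases before the start on the minus strand of chromosome 17, 5′ to 3′, at chr17:57535156-57535405 for C3 and chr17:35081560-35081809 for Cfb, with kappaB and C/EBP matches in capitals.
C3 promoter: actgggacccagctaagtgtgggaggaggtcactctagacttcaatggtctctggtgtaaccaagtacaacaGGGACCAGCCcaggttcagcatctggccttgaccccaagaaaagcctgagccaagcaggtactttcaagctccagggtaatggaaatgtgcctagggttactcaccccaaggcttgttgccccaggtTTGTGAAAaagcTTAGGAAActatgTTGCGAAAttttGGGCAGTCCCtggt
Cfb promoter: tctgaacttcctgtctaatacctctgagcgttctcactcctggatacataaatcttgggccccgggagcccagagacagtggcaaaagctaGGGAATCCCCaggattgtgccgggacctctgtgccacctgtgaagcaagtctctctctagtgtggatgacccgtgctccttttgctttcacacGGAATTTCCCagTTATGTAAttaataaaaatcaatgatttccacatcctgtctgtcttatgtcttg
In C3, 3 C/EBP matches stood within 51 to 19 bases of the start and 2 kappaB matches at 178 to 169 and 14 to 5 bases. In Cfb the kappaB matches stood at 159 to 150 and 66 to 57 bases and the C/EBP match at 54 to 47 bases. Over the 10 members, 5 held a kappaB match (Lcn2, C3, Cfb, Cebpb and Cebpd), 5 a C/EBP match (Lcn2, Saa1, Saa2, C3 and Cfb) and 0 a STAT match, which 7.71% of all promoters held. Hp, Saa3 and Nfkbiz held none of the 3 in this window. The Nfkbiz window (chr16:55642920-55643169) lies ahead of the canonical transcript but inside the annotated gene. The bases ahead of the outer end of that gene, at 55659262, were not searched.

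Nfkbiz (chromosome 16, 55631738 to 55659262, minus strand) was the only member other than Lcn2 that was higher in the organoids in 7 of 7 lines. It ran from 16.7 CPM (m28) over a median of 34.2 CPM to 128 CPM (m60) in 2D, and from 37.3 CPM (m28) over a median of 81.1 CPM to 226 CPM (m60) in 3D. The ratio of 3D to 2D was largest in m54 (4.77, 4.18 to 5.45) and m12 (3.28, 3.10 to 3.46), and lay at 1.77 to 2.38 in m5, m28, m60 and m107. In m67 it was 1.03 (0.946 to 1.12), whose interval includes no difference. The means were 45.3 ± 39.5 CPM in 2D and 94.9 ± 65.6 CPM in 3D (SD, n = 7).

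Among the 5 members that passed the filter and were not chosen on their own values, Nfkbiz was the 1 past the threshold, with a log2 difference of 1.15 (SE 0.23; adjusted p = 0.0402, limma), where 2.10% of the 11677 genes tested were called higher in 3D and 1.18% lower. Of the 10 members 7 passed the filter on low values, and Saa1, Saa2 and Cfb did not. The call was near the threshold: over the 20 alternatives the adjusted p ran from 0.00115 to 0.239, and leaving out 1 line gave 0.0437 without m12 and 0.0522 (without m107) to 0.110 (without m28) for every other line. The difference itself kept its direction and lay between 0.98 and 1.41 in these alternatives. It was 1.03 without m5 and m12 (adjusted p = 0.0932).

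C/EBP-beta and C/EBP-delta, encoded by Cebpb (chromosome 2, 167530835 to 167532338) and Cebpd (chromosome 16, 15705150 to 15708895), are transcription factors that inflammatory cytokines induce. Cebpb ran from 69.5 CPM (m67) over a median of 197 CPM to 302 CPM (m60) in 2D and from 106.5 CPM (m12) over a median of 313 CPM to 478 CPM (m60) in 3D. Its ratio of 3D to 2D was 4.26 (4.13 to 4.40) in m5, 0.541 (0.523 to 0.560) in m12 and between 1.32 and 1.94 elsewhere. The log2 difference of 0.65 (SE 0.29) had an adjusted p of 0.204 by limma (higher in 6 of 7 lines), and of 0.197 by DESeq2 and 0.279 by edgeR. Without m12 it was 0.91 with an adjusted p of 0.0493 (limma), without m5 0.42 (0.372), and without m5 and m12 0.67 (0.0561). Leaving out any other single line gave an adjusted p of 0.230 to 0.359 (limma).

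Cebpd was at 6.41 CPM (m67) over a median of 40.1 CPM to 167 CPM (m60) in 2D and at 17.8 CPM (m12) over a median of 52.1 CPM to 323 CPM (m60) in 3D. Its ratio was 7.39 (6.14 to 8.95) in m67 and 6.30 (5.77 to 6.89) in m5, where 2D levels were lowest, and 0.525 (0.484 to 0.571) in m12. In m54 the interval of the ratio, 0.986 to 1.23, included no difference. The log2 difference was 0.88 (SE 0.43; adjusted p = 0.236, limma; higher in 6 of 7 lines). It was 0.57 without m67 (adjusted p = 0.437, limma), 0.60 without m5 (0.436), 1.17 without m12 (0.0975) and 0.90 without m5 and m12 (0.197). Exons of Peds1 and Spidr on the opposite strand overlap 20.7% of the Cebpb and 15.0% of the Cebpd transcript, and the strand setting of the counting is not given in the sources used here.

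The plot of differences by line sets the members side by side. In m5, m60 and m67 the secreted members Lcn2, Hp, Saa3 and C3 were all higher in 3D by at least 3.63 on the log2 scale. In m28, m54 and m107 the same 4 were higher by 0.21 to 4.56. In m12 only Lcn2, Cfb and Nfkbiz were higher in 3D, and Hp, Saa3, C3, Cebpb and Cebpd were lower. This is the library without mesenchymal markers, and its part in these reversed differences was not tested.

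**Figure D2:**
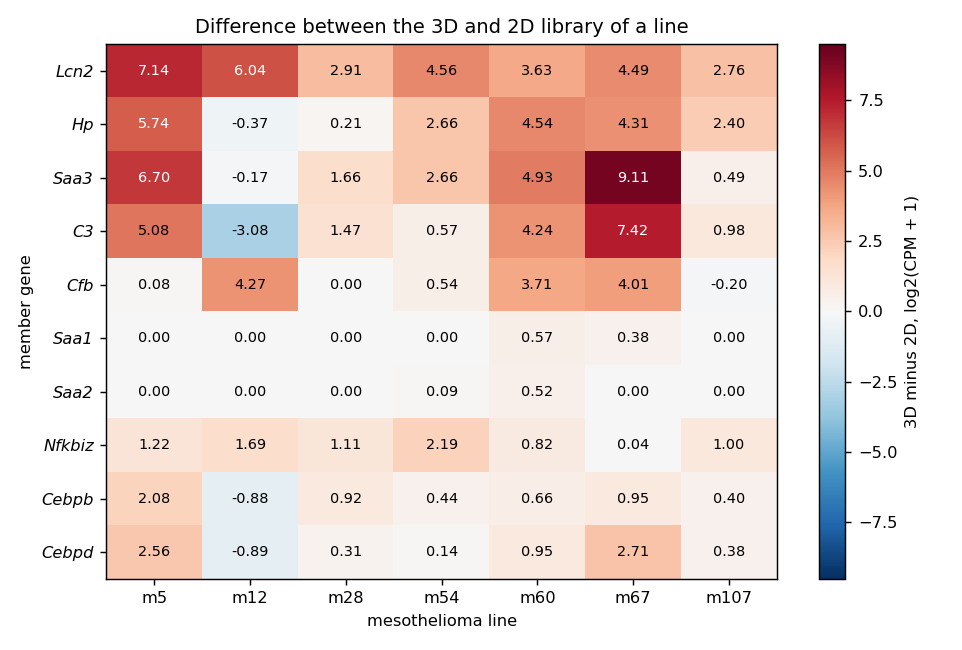
Difference between the 3D and 2D library of each line on the log2(CPM + 1) scale (colour and printed value) for the 10 members (rows) and 7 lines (columns). Lcn2 was positive in every line, from 2.76 to 7.14; C3 reached 7.42 in m67 and was -3.08 in m12.

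The members also differed in how they followed each other across libraries. Over the 14 libraries Lcn2 was most like Nfkbiz among the members (Pearson r = 0.88; 0.80 over 12 libraries without m60), Hp was most like Saa3 (0.92; 0.94 without m60), and C3 was about as like Cebpb (0.90; 0.88 without m60) as Cebpd (0.87; 0.89 without m60). Nfkbiz against C3 gave 0.23 and, without m60, -0.12. Over the 28 pairs of the 8 members with reads in enough libraries the median r was 0.63, and 0.47 without m60. These are descriptions: the 2 libraries of a line are not independent, and the difference between the cultures enters every r.

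Among 10670 genes with a mean of at least 5 CPM, those most like Lcn2 were Aldh3a1 (an aldehyde dehydrogenase, r = 0.92), Por (cytochrome P450 reductase, 0.91), Cd47 (0.91), P2rx4 (an ATP-gated channel, 0.91) and Clk1 (a splicing kinase, 0.90). Those most like Hp were Zmynd15 (0.93), Prg4 (lubricin, 0.93), Saa3 (0.92), Pcnx3 (0.92) and Gdpd2 (0.92). Without m60 these r values were 0.84 to 0.94 over 12 libraries.

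The wider set of acute-phase and related secreted genes was measured next, 25 genes beside the members, of which 8 passed the filter. This list and those below were chosen with earlier results of these data known. Their counts and medians beside all genes tested are therefore descriptions and no test of a list. Cp (ceruloplasmin, a copper-carrying ferroxidase) and Steap4 (a metalloreductase of iron and copper) rose in 7 of 7 lines, and Ptx3 (the long pentraxin, a soluble pattern receptor) fell in 7 of 7. These were the 3 calls among the 8. Of all 11677 genes tested, 2.10% were called higher, 1.18% lower, and 7.05% were higher in 3D in 7 of 7 lines. Cp went from 79.2 ± 101 CPM in 2D to 374 ± 484 CPM in 3D (SD, n = 7), with a log2 difference of 3.23 (SE 0.60; adjusted p = 0.0343, limma). Steap4 went from 12.4 ± 17.2 to 122 ± 153 CPM (3.21, SE 0.54; adjusted p = 0.0300, limma). Ptx3 went from 115 ± 86.6 to 12.04 ± 17.2 CPM (-3.61, SE 0.59; adjusted p = 0.0295, limma). The median log2 difference of the 8 was 1.62, beside 0.06 over all genes tested.

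Among the genes of this list that failed the filter, Serpina3n was at 239.5 CPM in 3D m60, 48.1 CPM in 3D m67 and at most 4.24 CPM elsewhere. Orm1, which encodes the acid glycoprotein of serum, was at 8.33 CPM in 3D m60 and at most 0.131 CPM elsewhere. Crp was seen in 3D m12 (8.44 CPM), and the fibrinogen genes Fga, Fgb and Fgg stayed at or below 0.193 CPM in all libraries.

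Of the 18 genes of this list that reached 1 CPM in any library, 13 were highest in 3D m60, as were 7 of the 8 members that did so. Over the 14286 genes of the table that reached 1 CPM in a library the share was 12.3%. Since Hp was chosen for its level in 3D m60, the member count is given without further reading. The heatmap of other acute-phase and complement genes shows the m60 organoids as the brightest column across most rows.

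**Figure D3:**
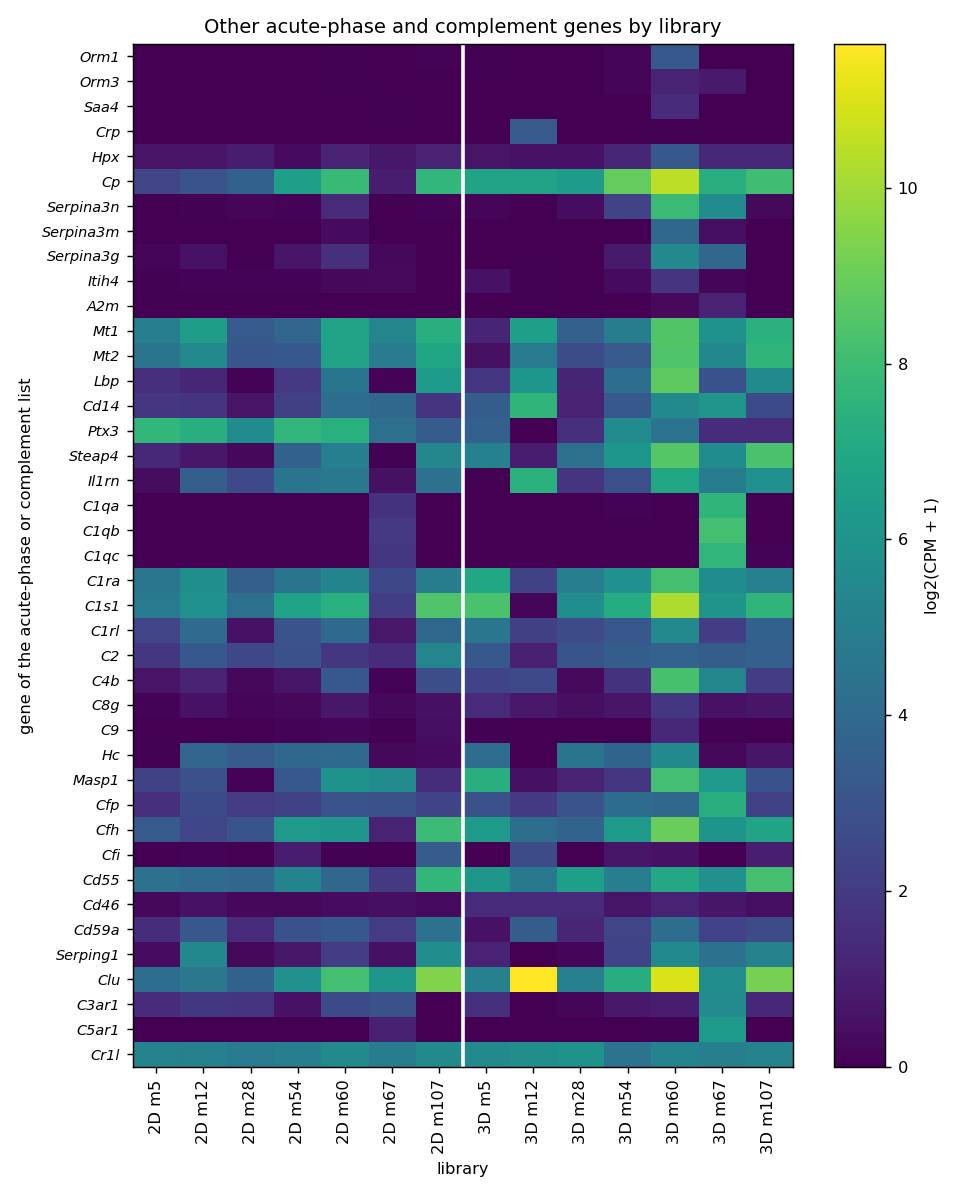
Level on the log2(CPM + 1) scale (colour) of 41 other acute-phase and complement genes that reached 1 CPM in a library (rows) in the 7 2D and 7 3D libraries (columns, with a white line between the cultures). The column of 3D m60 holds the highest value of 22 of the genes, and C1qa, C1qb and C1qc stand out in 3D m67.

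Of 23 complement genes beside the members that reached 1 CPM in any library, 9 were highest in 3D m60. Over the 14286 genes that reached 1 CPM in a library, 12.3% were highest in 3D m60. The complement list holds C1qa, C1qb and C1qc, which are also among the macrophage markers read in 3D m67. Of the 15 tested, 0 passed in either direction by limma, and 5 had an unadjusted p under 0.05 (3 of the 15 passed with DESeq2, 0 with edgeR, and 1 by limma without m12). Over all 11677 genes tested, 2944 had an unadjusted p under 0.05 by limma. DESeq2 called 1886 of them, edgeR 78, and limma without m12 771. Their median log2 difference was 0.80, and 13 of the 15 were positive. Cd55, a membrane inhibitor of the C3 convertase, went from 44.7 ± 73.0 to 100.01 ± 92.7 CPM (log2 difference 1.75; adjusted p = 0.0828, limma; higher in 6 of 7 lines). C4b, whose product starts the classical convertase, was at 299 CPM in 3D m60 and 38.98 CPM in 3D m67, against 0.0964 to 8.24 CPM in the other 12 libraries. Clu was highest in 3D m12 (3184 CPM) and 3D m60 (2011 CPM).

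Upstream of the members, the NF-kB subunits, kinases and inhibitors gave 3 calls among 19 tested, all higher in 3D and each in 7 of 7 lines, where 2.10% of all genes tested were called higher, 1.18% lower, and 7.05% were higher in 7 of 7 lines. Nfkbia, the inhibitor IkappaB-alpha that NF-kB itself induces, went from 59.7 ± 30.2 to 113 ± 52.2 CPM (log2 difference 0.92, SE 0.14; adjusted p = 0.0283, limma). Bcl3, a nuclear IkappaB relative of Nfkbiz, went from 17.8 ± 10.7 to 49.3 ± 18.7 CPM (1.54, SE 0.32; adjusted p = 0.0421, limma). Relb, a subunit of the non-canonical arm, went from 29.99 ± 11.4 to 56.9 ± 18.0 CPM (0.91, SE 0.19; adjusted p = 0.0430, limma). The subunit Rela differed by -0.03, and the median of the list was 0.17, beside 0.06 over all genes tested.

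Of 17 tested NF-kB target genes 3 rose and 1 fell, where 2.10% of all genes tested were called higher and 1.18% lower, with a median of 0.53 beside 0.06 over all genes. Zc3h12a, which encodes the RNase Regnase-1 that degrades inflammatory mRNAs, went from 13.96 ± 11.9 to 36.1 ± 35.9 CPM (log2 difference 1.25, SE 0.17; adjusted p = 0.0191, limma; 7 of 7 lines). The neutrophil-attracting chemokine Cxcl5 went from 114 ± 239 to 741 ± 1258 CPM (3.72, SE 0.65; adjusted p = 0.0312, limma; 7 of 7 lines), with 650 CPM in 2D m60 and 3478 CPM in 3D m60. Tnfaip2 went from 82.9 ± 28.9 to 306 ± 239 CPM (1.67; adjusted p = 0.0429, limma; 7 of 7 lines). Gadd45b, a stress gene, fell from 68.4 ± 20.5 to 27.0 ± 17.2 CPM (-1.45; adjusted p = 0.0389, limma; lower in 7 of 7 lines). Classical targets such as Ccl2, Icam1 and Vcam1 differed little on average on the log2 scale, but with wide intervals. Their differences were 0.07 (95% interval -2.02 to 2.15), 0.17 (-1.33 to 1.68) and 0.20 (-1.74 to 2.15). Lines moved in both directions, as Ccl2 went from 94.5 to 1.08 CPM in m12 and from 16.5 to 312 CPM in m67. Csf3, at 244 CPM in 3D m60 and at most 12.9 CPM elsewhere, had an adjusted p of 0.0728 by limma (log2 difference 1.60, higher in 7 of 7 lines).

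**Figure D4:**
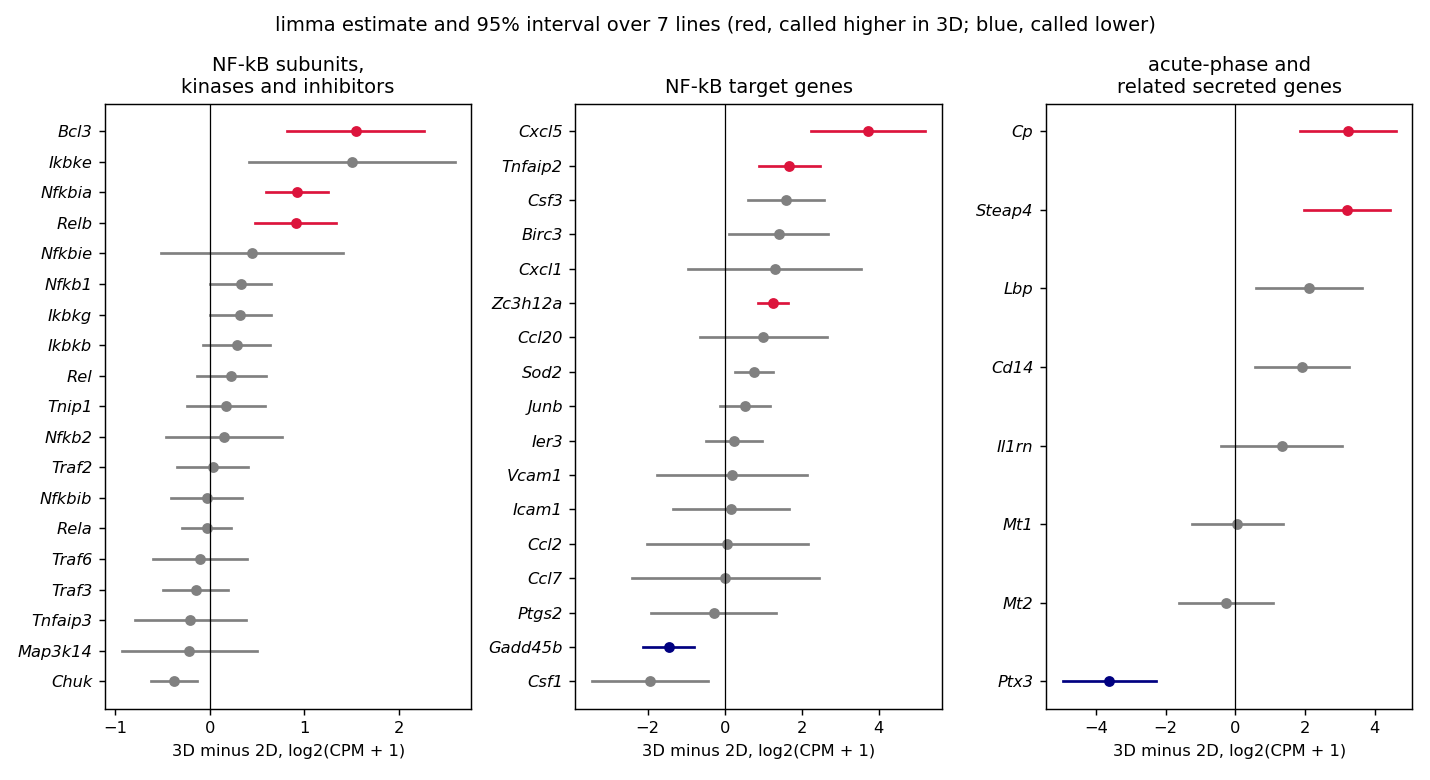
Mean difference between 3D and 2D on the log2(CPM + 1) scale (x axis, point) with its 95% confidence interval from limma over 7 lines, for the tested genes (y axis) of 3 lists; red marks genes called higher in 3D, blue genes called lower and grey the rest. Of 44 genes 8 were called higher and 2 lower, with Cxcl5 and Cp the farthest right and Ptx3 the farthest left.

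The cytokine and JAK-STAT arms gave 0 calls by limma with the settings used throughout. The counts below stand beside 2944 of all 11677 genes tested with an unadjusted p under 0.05 by limma. Over all genes DESeq2 called 1886 and edgeR 78, and limma called 771 without m12 and 348 without m5 and m12. Further limma totals were 313 with TMM scaling, 139 with no line term and 578 without m107. With a mean of at least 10 CPM limma called 353 of 9755 genes. Of 14 cytokine ligands 5 passed the filter, and of these 0 had an unadjusted p under 0.05 (0 passed with DESeq2 or edgeR). Il6 failed the filter, with 22.3 CPM in 2D m60, 32.8 CPM in 3D m60 and at most 3.52 CPM elsewhere. Tnf also failed it, at 0 to 0.507 CPM in 2D and from 0.0268 CPM (m5) to 21.4 CPM (m12) in 3D. Il1a, likewise untested, ran from 0 (m28) to 18.2 CPM (m60) in 2D and from 0 (m5) to 23.4 CPM (m60) in 3D. Of 17 receptors 4 had an unadjusted p under 0.05 (1 passed with DESeq2, 0 with edgeR; by limma 5 passed without m12 and 1 without m5 and m12), led by Il1r1, the interleukin-1 receptor, at 55.4 ± 44.9 and 127 ± 134 CPM (log2 difference 1.10; adjusted p = 0.0924, limma; 6 of 7 lines). Of 11 genes of the JAK-STAT3 arm 2 did (2 passed with DESeq2, 0 with edgeR; by limma 1 passed with TMM scaling, which was Ptpn11 (the phosphatase SHP-2), and 1 with a mean of at least 10 CPM, with no line term, and without m107, which was Tyk2 each time). Tyk2, a Janus kinase, went from 23.0 ± 4.90 to 43.9 ± 8.90 CPM (0.90; adjusted p = 0.0507, limma; higher in 7 of 7 lines), just outside the threshold, and Socs3, a feedback target of STAT3, differed by 0.86 (adjusted p = 0.231, limma; 5 of 7 lines).

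Of the other C/EBP family genes 0 of 6 tested passed by limma (1 had an unadjusted p under 0.05, 1 passed with DESeq2 and 0 with edgeR), with Cebpa at 4.85 ± 3.50 and 12.01 ± 9.69 CPM (log2 difference 1.05; adjusted p = 0.107, limma; 6 of 7 lines). Of 8 glucocorticoid response genes, read because glucocorticoids act with cytokines on acute-phase genes, 0 passed by limma (3 had an unadjusted p under 0.05, 1 passed with DESeq2 and 0 with edgeR; by limma 1 passed with no line term and without m107, Tsc22d3 in each case). Tsc22d3, which encodes the glucocorticoid-induced leucine zipper, was at 16.3 ± 9.76 and 48.5 ± 24.1 CPM (1.52; adjusted p = 0.0567, limma; 6 of 7 lines). Over all 11677 genes tested, 2944 had an unadjusted p under 0.05 by limma, and 1886 passed with DESeq2. With edgeR 78 passed, and by limma 139 with no line term and 578 without m107.

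Among receptors and partners of the member proteins 1 of 10 tested genes passed by limma, and it fell. Of all 11677 genes tested, 1.18% were called lower and 2.10% higher. With DESeq2 2 passed (also Fth1) and with edgeR 0, where 1886 and 78 of all genes did. By limma 3 passed without m12 and without m5 and m12 (also Fth1 and Slc22a17), where 771 and 348 of all genes did. Lrp2 encodes megalin, an endocytic receptor that takes up lipocalin 2, and went from 124 ± 149 CPM in 2D to 7.21 ± 9.42 CPM in 3D (log2 difference -4.07, SE 0.55; adjusted p = 0.0179, limma; lower in 7 of 7 lines). Slc22a17, a further reported lipocalin 2 receptor, was at 5.35 ± 4.75 and 20.02 ± 22.9 CPM (1.38; adjusted p = 0.148, limma; 6 of 7 lines). Mmp9, whose product forms a complex with lipocalin 2, was at 239 CPM in 3D m60 and at most 23.8 CPM elsewhere. Fth1, the ferritin heavy chain, was at 1401 ± 813 and 3753 ± 3916 CPM (1.15; adjusted p = 0.101, limma; 6 of 7 lines).

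These 11 calls in the lists depended on the tool, the filter and the lines included. By edgeR 2 of the 11 passed (Nfkbia and Zc3h12a) and by DESeq2 all 11. By limma with no filter 3 did (Lrp2, Nfkbia and Zc3h12a), with no line term 3 (Gadd45b, Lrp2 and Tnfaip2), and without m5 and m12 8 (not Bcl3, Cp or Relb). Without m12 all 11 passed (highest adjusted p 0.0446, limma), without m107 9 did (not Relb or Gadd45b; highest 0.0578), without m5 Cxcl5, Lrp2 and Zc3h12a did (highest 0.105), without m54 or m60 Lrp2 alone (highest 0.0959 and 0.0784), and without m28 or m67 none (0.0519 to 0.117 and 0.0610 to 0.110). All 11 kept their direction in the 20 alternatives. TMM scaling moved the calls over all genes from 245 higher and 138 lower to 155 and 158, and quantile normalization to 180 and 170.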

How the data were processed

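RNA of 7 MM lines in 2D and 3D culture was sequenced, 1 library per line and culture. Another 6 samples of normal mesothelial cells have no column in the table used and were not analysed here. Per the study's methods, FastQC 0.10.0 (read quality), Trim Galore 0.6.4 (trimming), STAR 2.7.9a (alignment, GRCm39) and HTSeq-count 0.12.4 (counting) were run by the authors. The authors deposited CPM. All values (100%) were whole multiples of 1 read within 0.001 reads, so reads were recovered. The deposited p-values and q-values of the authors' own comparison were not used.

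Tests ran on log2(CPM + 1) with limma 3.58.1 (R 4.3.3), with line and culture as terms and a variance trend, for 11677 genes (1 CPM or more in 7 or more libraries), with Benjamini-Hochberg adjustment and a threshold of 0.05. Nothing in the sources used here gives separate cultures per line, so p-values measure the spread over lines. Ratios within a line have exact 95% binomial intervals, which cover counting error only; a count of 0 was set to 3 reads. Alternatives were pseudocounts of 0.1 and 5, no filter, a mean of at least 10 CPM, TMM and quantile scaling, no line term, edgeR 4.0.16 and DESeq2 1.42.0 on recovered reads, each line left out, m5 and m12 left out, and the crocidolite lines from p53+/- mice alone; leaving out m12 and m67, or m5, m12 and m67, was added after seeing the data.

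Per the labels and the study, same-line libraries come from 1 mouse, which pairs them. As a check, 5 of 7 lines correlated best with their own line (r = 0.317 to 0.703, across genes). The exceptions were m5 (0.004) and m12 (-0.110), whose Y-linked reads also went against their pairing, so the line term may not pair the same cells there. The members and lists were chosen with earlier results of these data known. Named were all members, each list gene past the threshold and otherwise up to 4 with the smallest p, marker genes, and the 5 genes most like Lcn2 and Hp. Others (Rela, Ccl2, Icam1, Vcam1, Il6, Tnf, Il1a, Serpina3n, Orm1, Crp, the fibrinogen genes, Gm20547 and Nelfe) were named after their values were seen. On simulated data with 200 changed genes among 11677 (3D against 2D) limma found 12% of 2-fold and 63% of 4-fold changes, with 4 false among 79 calls. Positions and promoter sequence are from GRCm39 with GENCODE gene models. Scripts ran under Python 3.11.15 with scipy 1.17.1, pandas 2.3.3 and numpy 2.4.6.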

Additional observations from a re-analysis of the deposited data

How the results depend on the processing

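No log2 difference of the 7 members that passed the filter changed direction in the 20 alternatives. For Lcn2 and Hp, chosen on their values in these data, this is a description and no test. Over all genes, 383 passed; 63 did with no filter, 139 with no replicate block (the line term that carries the pairing), 78 with edgeR, 1886 with DESeq2, 14 in the crocidolite lines from p53+/- mice, 105 without m5, m12 and m67, 163 without m12 and m67, and 22 to 771 when 1 line was left out (without m54 and without m12).

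Of the 5 tested members not chosen on their own values 1 passed, Nfkbiz. With DESeq2 3 passed (also Saa3 and C3). With no filter, TMM scaling, quantile normalization, no replicate block, edgeR, without m5 and m12, in the crocidolite lines alone, or without m5, m12 and m67, 0 passed. Leaving out 1 line gave 0 to 2 (2, Nfkbiz and Cebpb, without m12). Lcn2's log2 difference was 6.39 with a pseudocount of 0.1, 6.76 with edgeR and 6.86 with DESeq2, and 2.90 with a pseudocount of 5. Depth limits Lcn2, Saa1, Saa2 and Cfb in 2D, where most libraries held under 10 reads.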
